A study of Mus musculus with 33 samples.

Results

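The comparison described here set OKMS6 cells treated with RepSox for 24 h against untreated OKMS6 cells at 24 h. It was chosen by sample title, and its members are 6 of the 33 arrays in the series, 3 treated and 3 untreated, with every gene that passed a detection filter. OKMS6 is a partially reprogrammed mouse line that arose from embryonic fibroblasts after viral transduction, and both groups carry viral Sox2 according to the labels. The line is a single line, the RepSox dose is not given in the labels, and neither is which cultures had irradiated fibroblast feeders or which serum. Other arrays of the series, used here as a frame, held OKMS6 cells with and without RepSox at 10 and 48 h (3 arrays each). They also held R1 embryonic stem cells, embryonic fibroblasts, and embryonic fibroblasts after 1 week of RepSox. These arrays shared the normalisation and the estimate of spread with the 24 h arrays, so they enter the p-values. The labels do not say that the 3 arrays of a group came from separate cultures, so p-values measure the spread between arrays, which may be technical.

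RepSox inhibits the kinase of ALK5, the TGF-beta type I receptor encoded by Tgfbr1. TGF-beta ligands normally bring type II and type I receptors together, and the type I receptor then phosphorylates Smad2 and Smad3, which enter the nucleus and change transcription of genes such as Skil and Smad7. Bone morphogenetic proteins (BMPs) signal through other type I receptors and Smad1 and Smad5, with the Id genes as typical targets. In reprogramming of fibroblasts, partially reprogrammed lines express some pluripotency genes and lack others, and inhibitors of ALK5 are known as chemicals that can stand in for Sox2.

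Array brightness differed with treatment. Mean raw signals were 163, 147 and 201 on the treated arrays, against 228, 217 and 238 on the untreated arrays, while 44.3% to 47.5% of probes were detected with RepSox and 45.9% to 46.6% without. After quantile normalisation, arrays correlated at 0.982 to 0.992 within the treated group, 0.992 to 0.997 within the untreated group and 0.970 to 0.981 between the groups, across the genes tested. Markers of other cell types were summed on each array. Of 10 fibroblast markers, 3 were detected on all treated and on all untreated arrays, with summed intensities of 325.6 to 415.1 with RepSox and 330.1 to 352.8 without, against 8579 to 9372 in embryonic fibroblasts. Col1a1, Col1a2, Col3a1, Pdgfra, Pdgfrb, Lum and Postn were detected on no array of either group, and neither were the blood and adipocyte markers. At 48 h the deposited processed table gives both replicate 3 arrays under each other's names, so the counts at 48 h are also given without them.

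At 24 h, 2572 of 9267 genes differed between treated and untreated cells (27.8%, limma, Benjamini-Hochberg adjusted p under 0.05), and an unadjusted p under 0.05 was found for 38.8%. RepSox-treated cells had higher levels of 1388 genes (15%) and lower levels of 1184 (12.8%). The change was at least 2-fold for 282 genes (3.04%), 183 of them higher (1.97%) and 99 lower (1.07%). Arrays of the groups did not overlap for 1832 genes that were higher with RepSox (19.8%) and 1583 that were lower (17.1%). The split between rises and falls depended on the scaling. With arrays scaled to a common median it was 527 higher against 3099 lower, with the median gene at -0.25 (log2), and with the median taken over probes detected on all arrays it was 2269 against 860, with the median gene at 0.13. Of the reported calls, 526 rises and 1150 falls were also called under the first of these and 1330 rises and 836 falls under the second, and no gene was called in the opposite direction. When all 30 arrays of the platform, including 2 dim arrays of another line, were normalised together and shared the estimate of spread, 997 genes were called. Of these 996 were among those reported. Changes are log2 differences of normalised intensity, treated minus untreated, with standard errors (SE). Changes of list members given without an SE were picked after their values were seen.

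**Figure D1:**
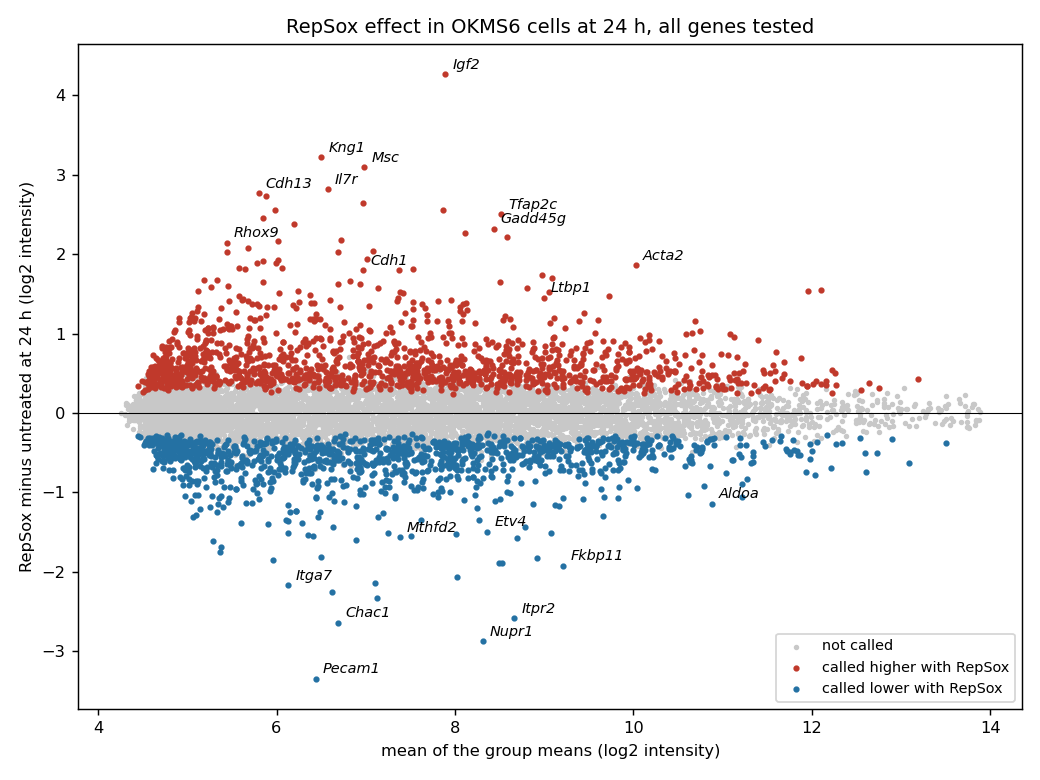
Change with RepSox at 24 h (log2, treated minus untreated) against the mean of the group means (log2 intensity) for the 9267 genes tested, with 1388 called higher in red, 1184 called lower in blue and the rest in grey. Igf2 stands highest at 4.27 and Pecam1 lowest at -3.35.

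The largest rise was that of Igf2, the imprinted fetal growth factor. Its log2 intensity was 10.07, 10.10 and 9.91 with RepSox, against 5.85, 5.61 and 5.81 in untreated cells, a 19.3-fold difference (log2 change 4.27 ± 0.11, adjusted p = 2.69e-21). Treated and untreated arrays stood far apart, and the treated mean lay close to the R1 embryonic stem cell mean of 10.01 and far below the embryonic fibroblast mean of 13.60. Wnt5a, a ligand of beta-catenin-independent Wnt signalling, was 7.28, 7.29 and 7.18 with RepSox, against 4.54, 4.44 and 4.58 without. All 3 treated arrays detected it and no untreated array did, which makes the rise at least 5.44-fold (log2 change 2.73 ± 0.18, adjusted p = 2.22e-12). Cdh13, a cadherin held to the membrane by a lipid anchor, was likewise detected only on the treated arrays, at 7.61, 7.03 and 6.92, against 4.49, 4.38 and 4.37 in untreated cells, at least 5.20-fold higher (adjusted p = 1.20e-13). Such bounds compare the treated mean with untreated signals raised, where dimmer, to that array's detection limit. Il7r, the interleukin-7 receptor alpha chain, had 7.96, 8.03 and 7.96 with RepSox, against 5.27, 5.0 and 5.23 without (log2 change 2.82 ± 0.10, adjusted p = 2.01e-18), and its treated arrays lay close together. Kng1, the precursor of bradykinin, rose by 3.22 ± 0.18 and Rnase1, a secreted ribonuclease, by 2.55 ± 0.11. Kng1 has a near-identical copy, Kng2, named here after its values were seen, which rose by 1.89 ± 0.11, so their signals may be shared, and a second, dim Kng1 probe rose by 0.54.

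Tfap2c, Msc and Insm1 encode transcription factors. Tfap2c, a factor of trophoblast and germ cells, had 9.85, 9.81 and 9.65 with RepSox and 7.32, 7.18 and 7.29 without, a 5.68-fold difference (log2 change 2.51 ± 0.10, adjusted p = 1.77e-16), and it reached the R1 mean of 9.78. Its other probes rose by 1.68 and 2.25. Msc, which encodes the repressor musculin, had 8.74, 8.58 and 8.27 with RepSox, against 5.50, 5.26 and 5.55 without (log2 change 3.09 ± 0.14, adjusted p = 2.73e-16). Insm1, a zinc-finger factor of neuroendocrine cells, rose by 2.65 ± 0.11, while Insm1 means in R1 cells and fibroblasts, 4.59 and 4.34, were at background. The remaining large rises were those of Gadd45g, a growth-arrest gene (2.32 ± 0.13), Gng13, a G-protein gamma subunit (2.46 ± 0.12), Aoc1, which degrades histamine and putrescine (2.38 ± 0.10), Sncg, gamma-synuclein (2.22 ± 0.15), Lypd1, a Ly6-family surface protein (2.26 ± 0.14), and Cpsf4l (2.55 ± 0.13). A second Cpsf4l probe, near background, changed by 0.22 and was not called.

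Pecam1, an adhesion molecule of endothelium that embryonic stem cells also carry, fell most. Intensities were 5.05, 4.64 and 4.61 with RepSox, against 7.82, 8.10 and 8.42 without, and 1 of 3 treated arrays detected it (log2 change -3.35 ± 0.14, adjusted p = 2.66e-16). Its other probe fell by 2.34. Of the other endothelial markers, Cdh5, Kdr and Emcn were detected on no array of either group, while Tek and Esam were detected on every array and changed by 0.15 and 0.18 without being called. The 6 endothelial markers on the array summed to intensities of 590.4 to 681.1 with RepSox and 801.9 to 915.6 without. Pecam1 is among the 6, so its own fall lowers the sum, which is no separate reading of such cells. The part of such cells in the fall of Pecam1 was not tested. Itpr2, an inositol trisphosphate receptor that releases calcium from the endoplasmic reticulum, was 7.52, 7.23 and 7.36 with RepSox and 9.97, 9.94 and 9.96 without (log2 change -2.59 ± 0.16, adjusted p = 8.29e-13), with a tight untreated group. Itga7, a laminin-binding integrin, fell by 2.17 ± 0.18, and Mylk, the kinase of myosin light chain, by 1.82 ± 0.17. Mfng, a fringe glycosyltransferase that modifies Notch, fell by 2.15 ± 0.14.

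Mfsd2a, a lysophospholipid transporter, fell by 2.26 ± 0.11 and Slc6a12, a betaine and GABA transporter, by 2.07 ± 0.12. Fkbp11, a prolyl isomerase of the endoplasmic reticulum, read 8.36, 8.25 and 8.15 with RepSox, against 10.20, 10.08 and 10.25 without (log2 change -1.93 ± 0.11, adjusted p = 5.31e-14). Neu1, the lysosomal sialidase, fell by 1.82 ± 0.13. Serpina3n, a secreted protease inhibitor, fell by 1.89 ± 0.11, Plac8 by 1.89 ± 0.14, Sfn, the 14-3-3 protein sigma, by 1.85 ± 0.15 and Ccdc68 by 2.34 ± 0.13. With the processed intensities of the series matrix in place of the scanner values, Lypd1, Serpina3n and Plac8 kept their direction and lost the call, as did Cpsf4l when judged by its other probe. The series matrix fit kept the exchanged names of the 48 h replicate 3 arrays, which enter its estimate of spread. In the scanner values Lypd1, Serpina3n and Plac8 changed by 3.67, -4.40 and -3.20 at 48 h. The part of the exchange in calls lost with the series matrix was not tested.

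**Figure D2:**
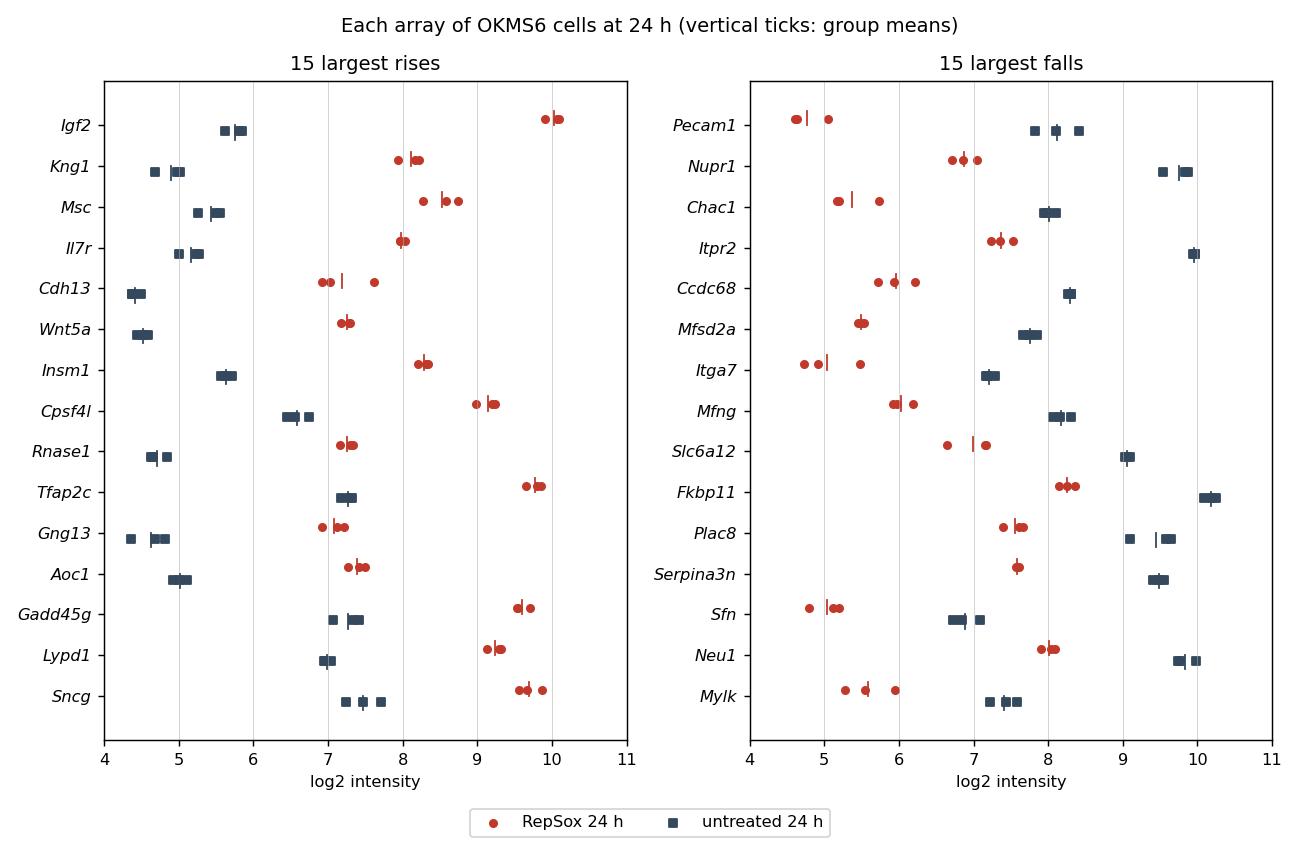
Log2 intensity on each array for the 15 largest rises (left) and the 15 largest falls (right), with RepSox arrays as red circles above untreated arrays as dark squares and ticks at the group means. In none of the 30 genes do treated and untreated arrays overlap, which the choice of these genes required.

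Direct targets of TGF-beta and activin did not move one way. Of 14 measured members of that list, 5 rose and 5 fell (71.4% called, against 27.8% of all genes). The median change was 0.11, against 0.00 over all genes tested. Skil, an inhibitor of Smad signalling that TGF-beta itself induces, fell. It had 7.81, 8.18 and 8.35 with RepSox and 9.27, 9.15 and 8.95 without, with no overlap (log2 change -1.01 ± 0.16, adjusted p = 2.10e-05). The transcription factor gene Bhlhe40 fell by 1.06 ± 0.18, Angptl4, a secreted inhibitor of lipoprotein lipase, by 0.77 ± 0.14, Junb, part of the AP-1 complex, by 0.54, and Timp3, a metalloprotease inhibitor, by 0.32 ± 0.10. The members that rose were Tgfbi, a matrix protein (0.53 ± 0.12), Bcl2l11, the cell-death protein Bim (0.46 ± 0.12), the matricellular genes Ccn1 (0.36) and Ccn2 (0.42), and Edn1, endothelin, detected on no untreated array (at least 1.06-fold). Smad7 had no probe named for it here and was not measured. Under scaling to a common median 1 member rose and 5 fell, and with all 30 arrays in the fit 1 rose and 4 fell.

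Among TGF-beta family ligands and binding proteins, 5 of 15 measured members rose and 3 fell (53.3% called, against 27.8% of all genes). Ltbp1, which holds latent TGF-beta in the matrix, had 9.65, 9.52 and 10.0 with RepSox, against 8.54, 8.16 and 8.11 without (log2 change 1.45 ± 0.16, adjusted p = 6.19e-08), although of 4 dimmer Ltbp1 probes only 1 was called (0.55) and the others changed by 0.22, 0.16 and -0.03. Fstl1, a follistatin-like protein, rose by 0.79 ± 0.09, Gdf3, a Nodal-related ligand of pluripotent cells, by 0.62 ± 0.09 and Ltbp3 by 0.44. Dcn, the proteoglycan decorin, was detected on no untreated array and rose at least 1.33-fold. Tdgf1, the Nodal co-receptor Cripto, fell to 5.38, 5.42 and 6.11 with RepSox, against 7.52, 7.11 and 6.93 without (log2 change -1.55 ± 0.19, adjusted p = 3.32e-07). Grem1, a BMP antagonist, fell by 0.75 ± 0.14 and Inhbb, an activin subunit, by 0.45. Lefty1 and Lefty2 have probes on the array but did not pass the detection filter.

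The drug's target was itself among the receptors and Smads that changed. Tgfbr1 had 8.33, 8.52 and 8.31 with RepSox, against 7.79, 8.06 and 7.77 without, a small rise without overlap (log2 change 0.51 ± 0.12, adjusted p = 0.0015), while its second, dim probe changed by -0.21 and was not called. Of 17 measured genes in the group 4 rose and 3 fell (41.2% called, against 27.8% of all genes). Beside Tgfbr1, the rises were Tgfbr2 (0.68 ± 0.10), Smad3 (0.63 ± 0.13) and Smad5 (0.31), while a second Tgfbr2 probe changed by 0.13 without a call. The falls were Acvr1 (-0.50 ± 0.13), Smurf1 (-0.46 ± 0.15) and Smad1 (-0.46). Under scaling to a common median none of the 17 was called higher and 6 were called lower. Tgfbr1, Tgfbr2 and Smad3 lost their calls there without turning in direction.

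BMP targets rose in part. Of 9 measured members 5 rose and 2 fell (77.8% called, against 27.8% of all genes), with a median of 0.63. Id2, a dominant-negative partner of helix-loop-helix factors, had 6.64, 6.74 and 7.27 with RepSox, against 5.95, 5.34 and 5.40 without (log2 change 1.32 ± 0.19, adjusted p = 5.73e-06), and a second, dim Id2 probe changed by 0.30 without a call. Id3 had 6.88, 6.79 and 6.60 with RepSox and 5.97, 5.92 and 5.83 without (log2 change 0.85 ± 0.14, adjusted p = 2.57e-05). Id1 had 10.62, 10.54 and 10.45 with RepSox and 9.89, 9.76 and 9.60 without (log2 change 0.79 ± 0.14, adjusted p = 1.02e-04). For all 3 Id genes every treated array was above every untreated array. Hey1, also a Notch target, rose by 0.63 ± 0.10 and Gata2 by 0.75 ± 0.12, whereas the homeobox gene Msx1 fell by 0.74 and Gata3 by 0.55 ± 0.18. With arrays scaled to a common median, Id1 and Hey1 were no longer called, and 3 members rose against 2 that fell.

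ATF4 is the transcription factor that raises amino acid supply under stress, and many genes of its list were lower with RepSox. Of 26 measured members of the list of ATF4 and amino acid stress genes, 16 fell, 2 rose and 8 were not called, so 69.2% were called against 27.8% of all genes, with a median of -0.51. Nupr1, a small stress-induced chromatin protein, had 6.71, 6.86 and 7.05 with RepSox, against 9.87, 9.83 and 9.54 without, a 7.33-fold difference (log2 change -2.87 ± 0.16, adjusted p = 5.01e-14). Chac1, which degrades glutathione, had 5.73, 5.20 and 5.17 with RepSox and 7.94, 8.11 and 7.98 without (log2 change -2.65 ± 0.32, adjusted p = 2.86e-07). Both groups were far apart for each gene, although treated replicate 1 of Chac1 lay above the other treated arrays. Mthfd2 and Shmt2, enzymes of mitochondrial one-carbon metabolism, fell by 1.57 ± 0.18 and 1.09 ± 0.14. Vldlr, a lipoprotein receptor, read 4.52, 4.48 and 4.46 with RepSox, below detection, against 5.76, 5.85 and 5.18 without, where every array detected it, at least 1.71-fold lower (adjusted p = 1.08e-06). Atf4 itself, singled out after its values were seen, had 6.06, 6.44 and 6.94 with RepSox, against 7.76, 7.84 and 7.77 without (log2 change -1.31 ± 0.19, adjusted p = 5.54e-06). Its treated arrays were spread widely and all lay below the untreated ones. Ddit4, an inhibitor of mTORC1 signalling, rose by 0.79 ± 0.13 and Sesn2, another such inhibitor, by 0.41.

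The remaining lowered members included Psat1, an enzyme of serine synthesis (-1.05), the amino acid transporter subunits Slc7a5 (-0.92) and Slc3a2 (-0.77), the pseudokinase Trib3 (-0.83) and Asns, asparagine synthetase (-0.49). Slc3a2 treated replicate 3 lay among the untreated arrays. With other scalings, with the series matrix and with all 30 arrays in the fit, 12 to 20 members fell and up to 3 rose.

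The promoters of 3 of these lowered genes are shown because they hold the composite element that ATF4 binds together with C/EBP proteins (TGATGNAA on either strand). They are RefSeq promoters on GRCm38.p6, with the 250 bases before the start printed 5′ to 3′ on the gene's strand and the element, here read as its reverse complement, in capitals.
Nupr1, chr7:126625471-126625720, minus strand: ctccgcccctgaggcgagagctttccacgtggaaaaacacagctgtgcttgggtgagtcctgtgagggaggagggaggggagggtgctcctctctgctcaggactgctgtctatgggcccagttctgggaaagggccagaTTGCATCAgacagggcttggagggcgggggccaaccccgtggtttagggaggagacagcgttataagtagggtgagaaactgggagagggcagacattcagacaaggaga
Chac1, chr2:119350992-119351241, plus strand: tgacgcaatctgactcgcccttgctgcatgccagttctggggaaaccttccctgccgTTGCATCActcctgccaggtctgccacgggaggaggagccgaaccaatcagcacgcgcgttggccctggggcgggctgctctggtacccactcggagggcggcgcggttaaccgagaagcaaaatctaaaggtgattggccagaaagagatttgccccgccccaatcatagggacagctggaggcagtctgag
Vldlr, chr19:27216770-27217019, plus strand: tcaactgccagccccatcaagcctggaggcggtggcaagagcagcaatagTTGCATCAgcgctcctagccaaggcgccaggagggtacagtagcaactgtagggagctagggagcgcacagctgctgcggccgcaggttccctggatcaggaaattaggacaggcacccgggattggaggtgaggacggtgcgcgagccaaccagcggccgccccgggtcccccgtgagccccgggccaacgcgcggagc
In a window that also took 50 bases after the start, the element was present for 5 of the 14 lowered members with a promoter in the table (35.7%), and for 5 of the 22 measured members (22.7%), against 2.93% of the 7572 tested genes with a promoter and 3.97% of all promoters. A match describes letters in this window and not a bound site.

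Glycolysis showed the lowest median of the 33 lists, at -0.53. Of 16 measured members 11 fell and 1 rose (75% called, against 27.8% of all genes), and 15 of 16 changes were below 0. Aldoa, an aldolase, had 10.40, 10.20 and 10.32 with RepSox, against 11.53, 11.34 and 11.47 without (log2 change -1.14 ± 0.14, adjusted p = 4.98e-07). Pfkp, a phosphofructokinase, had 7.30, 7.33 and 7.11 with RepSox, against 8.45, 8.79 and 9.07 without (log2 change -1.52 ± 0.17, adjusted p = 1.25e-07). Neither gene showed overlap. Ldha, lactate dehydrogenase, was among the brightest and fell by 0.51 ± 0.12. Pfkl fell by 0.72 ± 0.13 on its brightest probe, while the other changed by -0.14 without a call. Pdk1, a kinase that inhibits pyruvate dehydrogenase, fell by 0.65 ± 0.14 and Pgam1 by 0.60 ± 0.14. Hexokinase genes Hk1 (-0.55) and Hk2 (-0.50) and the brightly expressed Pkm (-0.75) and Gapdh (-0.39) were also lower. The single rise was in Slc2a3, a glucose transporter (0.66), while Slc2a1, the other transporter measured, changed by -0.01. With all 30 arrays in the fit 6 members fell, and the calls of Pfkp, Pdk1 and Pgam1 were lost.

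Hypoxia-response genes overlapped with this pattern in direction. Of 17 measured members 8 fell and 1 rose (52.9% called, against 27.8% of all genes), with a median of -0.30. Vegfa, the angiogenic growth factor, had 7.10, 7.36 and 7.49 with RepSox, against 8.39, 8.42 and 8.13 without (log2 change -1.0 ± 0.16, adjusted p = 2.05e-05). Egln3, a prolyl hydroxylase of HIF factors, had 8.20, 8.19 and 8.49 with RepSox, against 9.73, 9.32 and 9.28 without (log2 change -1.15 ± 0.19, adjusted p = 3.32e-05). In both genes all treated arrays lay below all untreated ones. Ndrg1 fell by 1.07 ± 0.14, Car12, a carbonic anhydrase, by 0.76 ± 0.12, Mxi1 by 0.85 ± 0.18 and P4ha1, a collagen prolyl hydroxylase, by 0.87. Bhlhe40, also counted as a TGF-beta target, and Egln1 (-0.40) complete the 8. The riser was Ddit4, which the ATF4 list shares. In the series matrix 4 members fell, and Vegfa, Egln3, Bhlhe40, Car12 and Mxi1 were among those that lost their calls. The hypoxia core ACGTG, on either strand, was present in the promoters of 5 of 6 lowered hypoxia genes and 8 of 11 lowered glycolysis genes with a promoter in the table (83.3% and 72.7%), against 29.4% of tested genes. Among all measured members with a promoter, called or not, the core was present in 9 of 13 hypoxia genes (69.2%) and 11 of 15 glycolysis genes (73.3%), so its share among the lowered glycolysis genes was that of the list. The E-box CACGTG, which contains this core, was present in 1 of 7 lowered Myc targets (14.3%) and in 5 of 18 measured ones (27.8%), against 11.5% of tested genes.

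**Figure D3:**
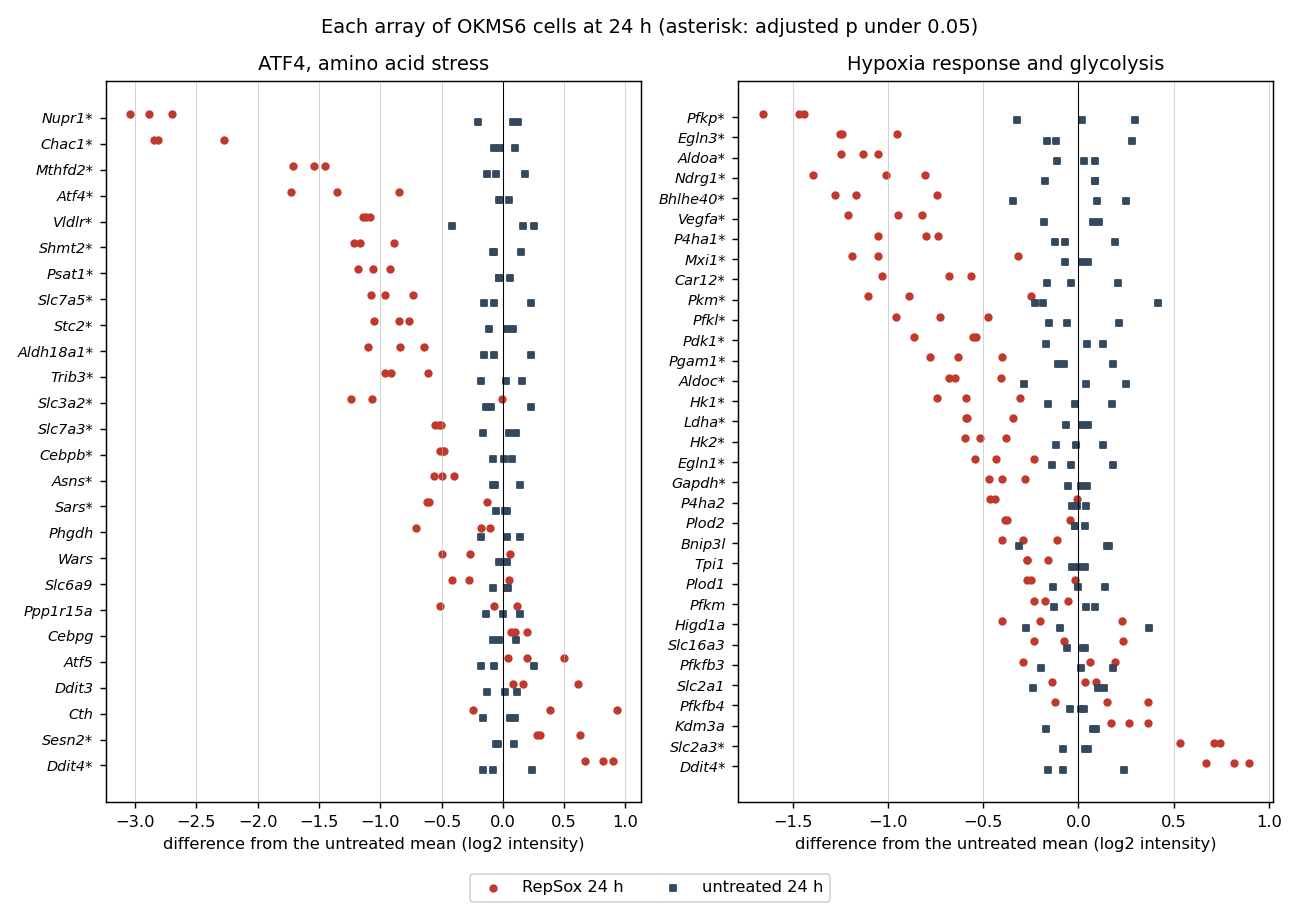
Each array's log2 intensity minus the untreated mean for the 26 measured ATF4 and amino acid stress genes (left) and for the measured hypoxia and glycolysis genes (right), RepSox arrays as red circles above untreated arrays as dark squares. Nupr1 and Chac1 lie furthest below 0, with changes of -2.87 and -2.65, and asterisks mark genes with an adjusted p under 0.05.

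Immediate early genes, which growth factors and stress induce within minutes, fell where they changed. Of 13 measured members 8 fell and 0 rose (61.5% called, against 27.8% of all genes), with a median of -0.46. Egr1 read 4.62, 4.62 and 4.49 with RepSox, below detection, against 5.72, 5.68 and 5.43 without, where every array detected it, at least 1.72-fold lower (adjusted p = 1.73e-06). Fos had 6.18, 6.54 and 6.26 with RepSox, against 7.27, 7.37 and 7.07 without (log2 change -0.91 ± 0.17, adjusted p = 2.02e-04). The zinc-finger RNA-decay factor Zfp36 fell by 0.46 ± 0.10, Ier3 by 0.82 ± 0.21. Fosl1 fell below detection on the treated arrays, at least 1.19-fold. In the series matrix 1 member rose and 1 fell. Readouts of FGF and ERK signalling were mixed, since 3 of 11 fell (27.3% called, against 27.8% of all genes) and the feedback genes Dusp6 and Spred1 changed by -0.16 and 0.27 without a call. Etv4, an ETS factor downstream of FGF, had 8.03, 7.50 and 7.30 with RepSox, against 9.04, 8.93 and 9.37 without (log2 change -1.50 ± 0.16, adjusted p = 3.10e-08), and Phlda1 (-0.87 ± 0.13) and Spry4 (-0.57 ± 0.13) were the others. With all 30 arrays in the fit Etv4 and Spry4 were no longer called.

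The Myc probe may read viral as well as endogenous transcripts. Myc had 8.87, 8.84 and 8.77 with RepSox, against 9.12, 9.26 and 9.74 without (log2 change -0.54 ± 0.18, adjusted p = 0.0234), a call lost in 6 alternatives, among them those without treated replicate 2, without treated replicate 3 and without untreated replicate 3. R1 cells and fibroblasts read 4.57 and 4.58 at the same probe, which was detected on none of their arrays. Mxd4, a Myc antagonist, rose by 0.64 ± 0.11, and Mxi1, another antagonist, fell. Among 23 measured Myc targets and ribosome biogenesis genes 10 fell and 0 rose (43.5% called, against 27.8% of all genes). Their median was -0.30. Srm, spermidine synthase, had 11.01, 10.63 and 10.66 with RepSox, against 11.56, 11.52 and 11.92 without (log2 change -0.90 ± 0.18, adjusted p = 4.80e-04). Odc1, ornithine decarboxylase, fell by 0.74 ± 0.13, Tfrc, the transferrin receptor, by 0.83 ± 0.10 and Ddx21, a nucleolar helicase, by 0.59 ± 0.13. With all 30 arrays in the fit 4 of the 23 fell, and with median scaling 17 did.

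Few mitosis genes were called at 24 h. Of 20 measured mitosis genes Ccna2 alone fell (-0.66 ± 0.16) and none rose, with a median of -0.13, and 5% called against 27.8% overall. In DNA replication 6 of 22 fell and 1 rose (31.8% called), with a median of -0.34, and 20 of the 22 changes were below 0. Among them Ccne2 fell by 0.73 ± 0.18, Cdc6, a licensing factor, by 0.58 ± 0.12, Tk1, thymidine kinase, by 0.56 ± 0.12 and Ccne1 by 0.42 ± 0.12, whereas E2f1 rose by 0.63 ± 0.14. The number that fell was 2 with all 30 arrays in the fit and 20 with median scaling. Of the growth-arrest genes of the Gadd45 family 2 rose, and Gadd45b changed by -0.25 without a call. Gadd45g had 9.70, 9.53 and 9.55 with RepSox, against 7.41, 7.33 and 7.07 without (log2 change 2.32 ± 0.13, adjusted p = 5.01e-14). Gadd45a had 7.07, 7.09 and 7.07 with RepSox and 5.70, 5.91 and 6.06 without (log2 change 1.19 ± 0.13, adjusted p = 3.00e-08). Of 23 measured p53 targets and cell-cycle inhibitors 30.4% were called, against 27.8% of all genes. In that list 5 rose, the others being Trp53inp1 (0.95 ± 0.14), Ccng1 (0.53 ± 0.10) and Sesn1 (0.37), and 2 fell, Sfn and Perp (-0.32). Neither of the other Ccng1 probes was called, at -0.01 and 0.15. Cdkn1a, the p21 inhibitor, changed by -0.26 and Mdm2 by 0.26, neither called.

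Among pluripotency genes 9 of 21 measured rose and 3 fell (57.1% called, against 27.8% of all genes), with a median of 0.12. Rhox9, a homeobox gene of the X chromosome's Rhox cluster, was 6.59, 6.62 and 6.34 with RepSox, against 4.37, 4.29 and 4.45 without. It was detected on no untreated array, and the rise was at least 3.27-fold (adjusted p = 3.77e-15). Eras, a Ras protein of embryonic stem cells, had 6.36, 6.45 and 6.60 with RepSox, against 5.29, 4.97 and 5.02 without (log2 change 1.38 ± 0.11, adjusted p = 1.91e-10). Nanog, a core pluripotency factor, read 5.12, 5.29 and 5.59 with RepSox, detected on every array, against 4.56, 4.48 and 4.29 in untreated cells, below detection throughout, which is at least 1.44-fold higher (adjusted p = 4.08e-07). The treated level of Nanog remained far under the R1 mean of 11.57. Klf2 rose by 0.94 ± 0.12, Klf5 by 1.17, Dppa5a by 0.75, Nr5a2, detected on 1 treated array and no untreated array, at least 1.06-fold and Fbxo15, already bright in untreated cells, by 0.28, with Gdf3 as the ninth. Besides Tdgf1, the falls were Utf1 (at least 1.17-fold, detected on no treated array) and Pou5f1. Esrrb and Dppa3 were detected on no array of either group, and summed intensities of the 9 embryonic stem cell markers were 3101 to 3560 with RepSox and 2690 to 2847 without, against 27900 to 29220 in R1 cells. Fbxo15, with log2 means of 11.533 with RepSox and 11.255 without, made up most of the sums in OKMS6 cells. With median scaling 7 members rose and 7 fell.

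Among the reprogramming factors Pou5f1 fell beside Myc, and Klf4 and Sox2 were not called. Pou5f1 had 10.73, 11.10 and 11.18 with RepSox, against 11.47, 11.71 and 11.70 without (log2 change -0.63 ± 0.14, adjusted p = 0.00133), close to its R1 mean of 11.66 in untreated cells. Its second probe changed by -0.37 and was not called, and the call was also lost with all 30 arrays and in the series matrix. Klf4 had 10.10, 10.02 and 9.81 with RepSox, against 9.78, 10.25 and 10.82 without, and these overlapped (log2 change -0.30 ± 0.17, adjusted p = 0.197). Sox2 stayed below detection on all 6 arrays (log2 change -0.09 ± 0.14, adjusted p = 0.654). Mycl had 5.12, 5.36 and 5.30 with RepSox and 5.23, 4.88 and 4.92 without, with overlap (adjusted p = 0.218). None of these probes is known here to separate endogenous from viral transcripts.

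Of 7 measured trophectoderm and germ-cell genes 4 rose and 1 fell (71.4% called, against 27.8% of all genes). Tfap2a (0.76 ± 0.14), Gata2 and Krt7 (0.35 ± 0.12) rose beside Tfap2c, and Gata3 fell. Cdx2, Eomes, Hand1 and Elf5, markers that define trophectoderm, were detected on no array of either group. Krt7 lost its call in 9 alternatives, including those without treated replicate 1, without treated replicate 2, without untreated replicate 2 and without untreated replicate 3.

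Of 13 measured epithelial genes 4 rose and 2 fell (46.2% called, against 27.8% of all genes). Cdh1, E-cadherin, had 7.64, 7.74 and 8.22 with RepSox, against 6.23, 6.01 and 5.96 without (log2 change 1.80 ± 0.14, adjusted p = 4.76e-11), still below its R1 mean of 9.44. Esrp1, an epithelial splicing factor, rose by 0.77 ± 0.15 and St14, a surface protease, by 0.65 ± 0.13, with Krt7 as the other riser. The falls were Sfn and the tight-junction gene Tjp1 (-0.87 ± 0.22). Krt18 and Cldn4 were detected on no array and Krt8 changed by -0.09, while epithelial markers, Cdh1 included, summed to 325.8 to 410.8 with RepSox and 178.6 to 222.0 without. Among 10 measured fibroblast and mesenchymal genes 3 rose and 0 fell (30% called, against 27.8% of all genes), namely Meox2 (at least 1.17-fold, detected on no untreated array), Vim (0.52 ± 0.16) and Twist1 (0.41 ± 0.15). Twist1 lost its call in 14 alternatives and Vim in 6. In bulk RNA, more cells of a type and more RNA per cell cannot be told apart.

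Contractile genes diverged. Acta2, smooth-muscle alpha-actin, had 11.26, 10.89 and 10.73 with RepSox, against 9.22, 9.10 and 8.96 without, a 3.64-fold difference (log2 change 1.86 ± 0.12, adjusted p = 1.24e-12), and its 3 other probes rose by 0.93 to 1.76. Actg2, whose sequence is close to that of Acta2, rose by 0.73 ± 0.10, Myocd by 0.76 ± 0.16 on its brightest probe with -0.20 and 0.35 on the others, and Csrp1 by 0.38. Mylk had 5.94, 5.55 and 5.28 with RepSox, against 7.43, 7.22 and 7.58 without (adjusted p = 2.48e-09), and Tpm2, a tropomyosin, fell by 0.45 ± 0.12. Other smooth-muscle markers, Tagln, Cnn1, Myh11 and Lmod1, were detected on no array of either group. In the extracellular matrix 5 of 21 rose and 1 fell (28.6% called, against 27.8% of all genes). Hspg2, the basement-membrane proteoglycan perlecan, had 10.13, 9.94 and 9.84 with RepSox, against 8.77, 8.70 and 8.95 without (log2 change 1.16 ± 0.18, adjusted p = 2.21e-05). Thbs2 (at least 1.29-fold, detected on no untreated array), Dcn, Tnc (0.53 ± 0.15) and Bgn (0.32) rose as well, and Lamb1, a laminin chain, fell (-0.84 ± 0.20). Of 13 matrix proteases and inhibitors 4 fell and 0 rose (30.8% called, against 27.8% of all genes), with Plaur, the urokinase receptor, furthest (-1.0 ± 0.15), followed by Mmp14 (-0.48 ± 0.16), Plat and Timp3. Plat was detected on no treated array and on 2 untreated arrays. Mmp14 lost its call in 10 alternatives, Plat in 8 and Timp3 in 6, and Plat turned to 0.07 with the median taken over detected probes.

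Imprinted genes other than Igf2 moved both ways. Of 11 measured members 4 rose and 3 fell (63.6% called, against 27.8% of all genes). Peg3, a zinc-finger gene, had 6.08, 6.20 and 6.04 with RepSox, against 5.19, 4.94 and 4.89 without (log2 change 1.10 ± 0.23, adjusted p = 7.40e-04). Snrpn rose by 0.52 ± 0.10 and Igf2r, the receptor that clears Igf2, by 0.49. Phlda2, a growth restrainer of placenta, read 4.51, 4.76 and 4.33 with RepSox, below detection, against 6.17, 6.21 and 6.30 without, where every array detected it, at least 2.64-fold lower (adjusted p = 4.11e-12). Mest, with treated values of 4.72, 5.03 and 5.74 against untreated values of 6.33, 6.36 and 6.19, fell by 1.13 ± 0.20, and Ascl2, detected on no treated array, fell at least 1.18-fold. H19, which shares a locus with Igf2, was not measured.

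In Notch signalling 6 of 10 measured genes fell and 2 rose (80% called, against 27.8% of all genes). Mfng had 5.97, 5.92 and 6.18 with RepSox, against 8.30, 8.06 and 8.16 without (adjusted p = 1.54e-12). The target Hes1 fell by 0.66 ± 0.14, the ligands Dll1 and Jag2 by 0.60 ± 0.17 and 0.57 ± 0.14, Nrarp by 0.32 and Notch4 by 0.33, whereas Notch1 rose by 0.67 and Hey1 rose. With all 30 arrays in the fit 1 member fell and 1 rose. Jag2 arrays overlapped between the groups. In the Wnt pathway 2 of 9 measured genes rose and 1 fell (33.3% called, against 27.8% of all genes). Wnt5a and Sfrp1, a secreted Wnt antagonist (1.29 ± 0.12), rose, and Wnt5b, detected on no treated array, fell at least 1.15-fold.

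Cytokine signalling genes split evenly, with 4 of 16 up and 4 down (50% called, against 27.8% of all genes). Besides Il7r, the rises were Cx3cl1, a chemokine (0.80 ± 0.14), Osmr, the oncostatin M receptor (0.61), and Socs3, a feedback inhibitor of STAT signalling (0.57 ± 0.12). Cxcl14, a chemokine, had 5.61, 5.62 and 5.57 with RepSox, against 6.88, 7.09 and 6.55 without (log2 change -1.24 ± 0.14, adjusted p = 1.01e-07), and Tnfrsf12a (at least 1.40-fold, detected on no treated array), Stat3 (-0.50) and Nfkbia (-0.50) also fell. Of 9 interferon-induced genes 2 rose and 1 fell (33.3% called, against 27.8% of all genes). Ifitm1, an antiviral membrane protein, rose to 6.01, 6.11 and 6.65 with RepSox, against 4.61, 4.64 and 4.71 without, at least 2.73-fold (adjusted p = 1.87e-09). Rsad2 rose by 1.12 ± 0.11, while Isg15 changed by 0.11 and B2m fell by 0.55 ± 0.14. Of 8 neuronal and neuroendocrine genes Insm1 rose and 4 fell (62.5% called, against 27.8% of all genes). The falls were Map2 (-0.93 ± 0.17), Gap43 (at least 1.66-fold lower, detected on no treated array), Nes (-0.85 ± 0.15) and Stmn2 (-0.32 ± 0.12). The second probe of Nes read 0.03 and that of Map2 -0.08, neither called, and Stmn2 lost its call in 11 alternatives. The endothelial list had Plvap up, detected on 1 treated array and no untreated array, and Egfl7 (-0.60 ± 0.17) and Nos3 (-0.58 ± 0.15) down beside Pecam1. In the blood and adipocyte lists 3 genes each were measured, with Hba-a1 up (0.52 ± 0.15) and Cebpb (-0.49 ± 0.13) and Cd14 (at least 1.34-fold, detected on no treated array) down. Hba-a1 has a near-identical copy, so its signal may be shared.

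Of 22 folding and heat-shock genes 8 fell and 1 rose (40.9% called, against 27.8% of all genes). Hspa5, the main chaperone of the endoplasmic reticulum, had 5.59, 5.29 and 6.85 with RepSox, against 7.14, 6.92 and 6.88 without (log2 change -1.07 ± 0.22, adjusted p = 5.14e-04), with treated replicate 3 just under the untreated arrays and the other two well below. Herpud1 fell by 0.73 ± 0.10, Creld2 by 0.44 ± 0.09, Hspa1a, which has a near-identical copy, by 0.73 ± 0.17 and the mitochondrial chaperonin Hspd1 by 0.51 ± 0.11, whereas Dnajc3 rose by 0.33. Among 20 genes of cholesterol and fatty acid synthesis, 35% of which were called, 6 fell, among them Lss (-0.69 ± 0.17), Stard4 (-0.66 ± 0.13), Elovl6 (-0.41 ± 0.12) and Acaca (-0.40 ± 0.10), and Hmgcs1 rose (0.41 ± 0.11). Of 18 antioxidant and glutathione genes 5 fell and 3 rose (44.4% called). The glutathione transferase Gsta4 had 6.92, 6.45 and 6.53 with RepSox, against 5.41, 5.21 and 5.29 without (log2 change 1.33 ± 0.21, adjusted p = 1.81e-05), Gsto1 (0.44 ± 0.11) and Gsta1, detected on no untreated array (at least 1.49-fold), rose too, and Txn1 (-0.67), Txnrd1 (-0.65), Hmox1 (-0.58), Srxn1 (-0.47 ± 0.11) and Gstm1 (-0.41 ± 0.12) fell. Treated replicate 3 was the treated array nearest to the untreated mean for 53.8% of all called genes, against 30.9% for replicate 1 and 15.2% for replicate 2. With all 30 arrays in the fit 1 folding gene, 2 lipid genes and 0 antioxidant genes were still called lower.

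For several named genes a dimmer probe was not called, namely Egfl7 (-0.16 and -0.19), Gstm1 (-0.06), Hspd1 (-0.24), Snrpn (0.28), Srxn1 (-0.23 and -0.22), St14 (0.10), Bcl2l11 (0.06) and Tfap2a (0.37). Some calls were lost when 1 array was left out, and values without the array are log2 changes that were no longer called. Several genes lost the call with any of several arrays left out, at times with a change no smaller. For Twist1 it was 0.45 without untreated replicate 3, against 0.41 with all arrays. Leaving out treated replicate 1 ended the calls of Egfl7 (-0.46), Hba-a1 (0.41), Krt7 (0.26), Plat (-0.34), Smurf1 (-0.39), Timp3 (-0.27), Tnc (0.41), Twist1 (0.37) and Vim (0.46). Without treated replicate 2 the genes were Ccne1 (-0.35), Elovl6 (-0.38), Gata3 (-0.53), Gstm1 (-0.33), Krt7 (0.37), Mmp14 (-0.47), Myc (-0.55), Plat (-0.32), Smurf1 (-0.41), Stmn2 (-0.30), Twist1 (0.28) and Vim (0.49). Without treated replicate 3 the genes were Dll1 (-0.38), Gata3 (-0.51), Mmp14 (-0.44), Myc (-0.52) and Stmn2 (-0.28). Without untreated replicate 1 the genes were Gstm1 (-0.37), Mmp14 (-0.42), Smurf1 (-0.45), Timp3 (-0.20), Twist1 (0.42) and Vim (0.46). Without untreated replicate 2 the genes were Gata3 (-0.52), Krt7 (0.30), Mmp14 (-0.50), Plat (-0.34), Smurf1 (-0.46), Stmn2 (-0.31) and Twist1 (0.37). Without untreated replicate 3 the genes were Ccne1 (-0.34), Dll1 (-0.46), Elovl6 (-0.32), Gata3 (-0.52), Gstm1 (-0.35), Krt7 (0.34), Myc (-0.36), Plat (-0.36), Stmn2 (-0.28) and Twist1 (0.45).

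**Figure D4:**
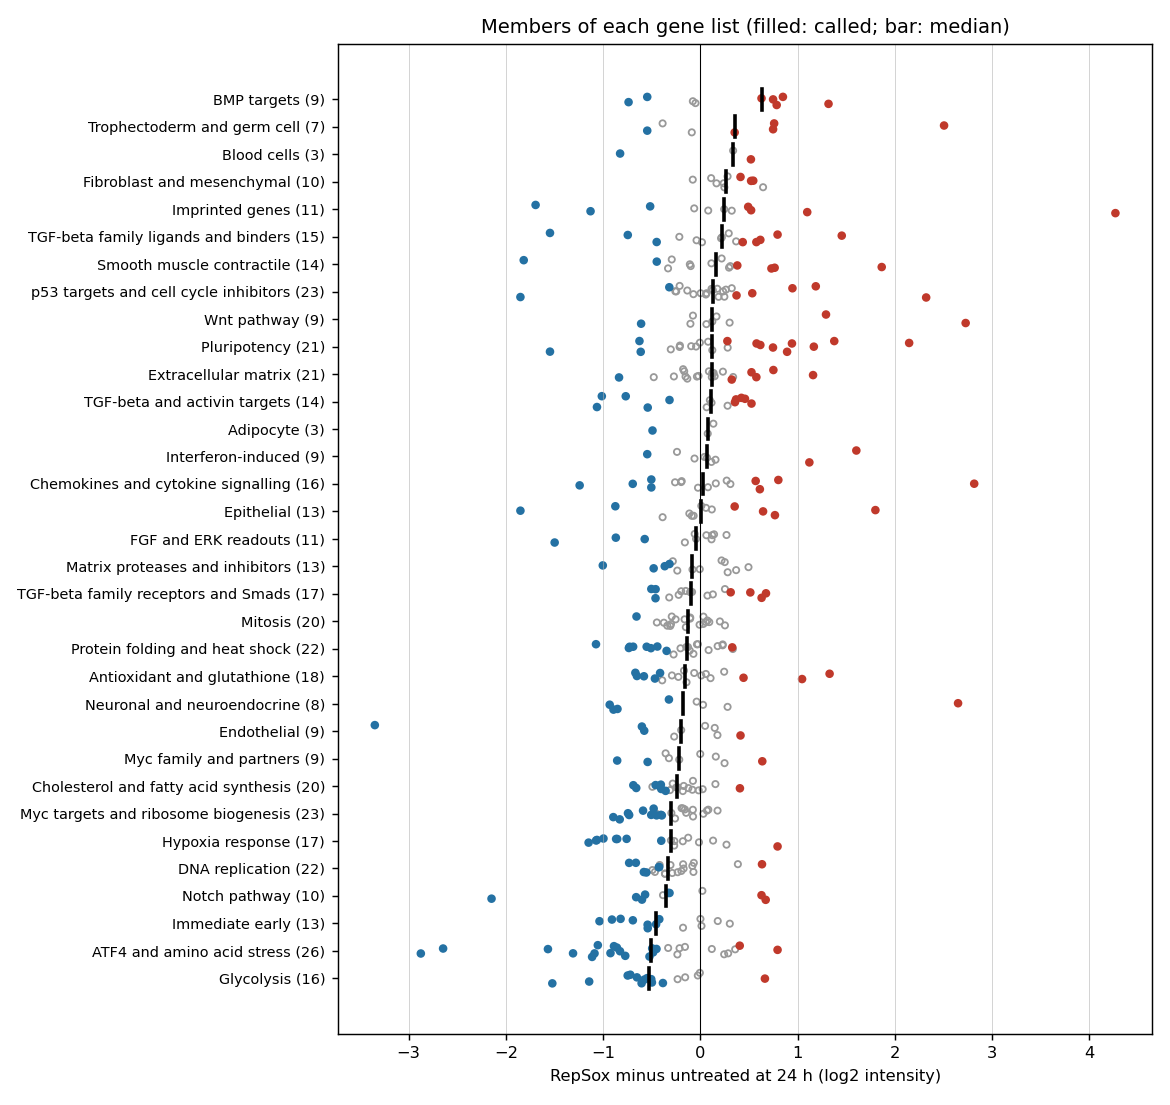
Change with RepSox at 24 h (log2) of each measured member of the 33 gene lists, ordered by median, with the number measured in brackets. Filled points were called (red higher, blue lower), open points were not, and bars mark medians, which run from 0.63 for BMP targets to -0.53 for glycolysis.

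The response at 24 h was then set against those at 10 and 48 h, when 14.5% and 37.1% of genes were called (27.7% at 48 h without the replicate 3 arrays of that time). The change at 24 h differed from the change at 10 h for 309 genes (3.33%), and differed from the change at 48 h for 2271 (24.5%), or 1695 without those arrays. The 24 h arrays enter both comparisons. Of the 1388 genes that rose at 24 h, 178 (12.8%) had a larger change than at 10 h, and of the 1184 that fell 97 (8.19%) had a deeper one. Over all genes tested, 2.07% had a higher change at 24 h than at 10 h and 1.26% a lower one. The rises and falls were chosen on the 24 h arrays, which by itself favours larger changes at 24 h than at other times. Igf2 rose by 1.61 at 10 h and 4.27 at 24 h, and stood at 4.15 at 48 h. Msc changed by 0.45, 3.09 and 4.82 at 10, 24 and 48 h. Nanog changed by 0.09, 0.89 and 2.91, and differed between each pair of neighbouring times. Serpina3n changed by -0.05, -1.89 and -4.40. Tfap2c (2.00, 2.51 and 2.46) and Sfn (-1.92, -1.85 and -1.64) did not differ between times by the test.

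At 48 h, 530 of the 1388 rises (38.2%) were smaller than at 24 h and 76 (5.48%) were larger, while 274 of the 1184 falls (23.1%) were shallower and 154 (13%) deeper. Without both replicate 3 arrays of 48 h these counts were 418, 62, 222 and 120. Over all genes tested, with those arrays, 14.1% had a lower change at 48 h than at 24 h and 10.4% a higher one. The choice of rises and falls on the 24 h arrays leans these counts towards smaller changes at 48 h. Gadd45g changed by 2.07, 2.32 and 0.56 at 10, 24 and 48 h and Sncg by 1.24, 2.22 and 0.51. Ltbp1 changed by 1.45 at 24 h and -0.28 at 48 h. Without the replicate 3 arrays the 48 h changes of Gadd45g, Sncg and Ltbp1 were 0.70, 0.57 and -0.10, and those of Igf2, Msc, Nanog and Serpina3n were 4.10, 4.55, 2.92 and -4.42. The cell-cycle lists differed most between these times. The change was higher at 48 h than at 24 h for 19 of 20 measured mitosis genes and 16 of 22 DNA replication genes, against 10.4% of all genes, with medians of 0.78 and 0.56 at 48 h. Without both replicate 3 arrays of 48 h the numbers were 18 and 16. Of the pluripotency genes, 6 of 21 had a higher change at 24 h than at 10 h, against 2.07% of all genes. A lower change at 24 h than at 10 h was found for 4 ATF4 list genes, 4 glycolysis genes and 4 hypoxia genes, against 1.26% of all genes. For Myc targets 6 of 23 were higher at 48 h than at 24 h, with and without these arrays. ATF4 and amino acid stress genes had medians of -0.23, -0.51 and -0.63 at 10, 24 and 48 h, with 7, 16 and 17 members lower. Glycolysis had medians of -0.14, -0.53 and -0.48, with 1, 11 and 8 lower, and hypoxia genes medians of -0.05, -0.30 and -0.57, with 1, 8 and 10 lower. Without the replicate 3 arrays the 48 h medians of the ATF4, glycolysis and hypoxia lists were -0.79, -0.47 and -0.47, with 17, 7 and 9 lower, and those of mitosis and DNA replication were 0.79 and 0.51.

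**Figure D5:**
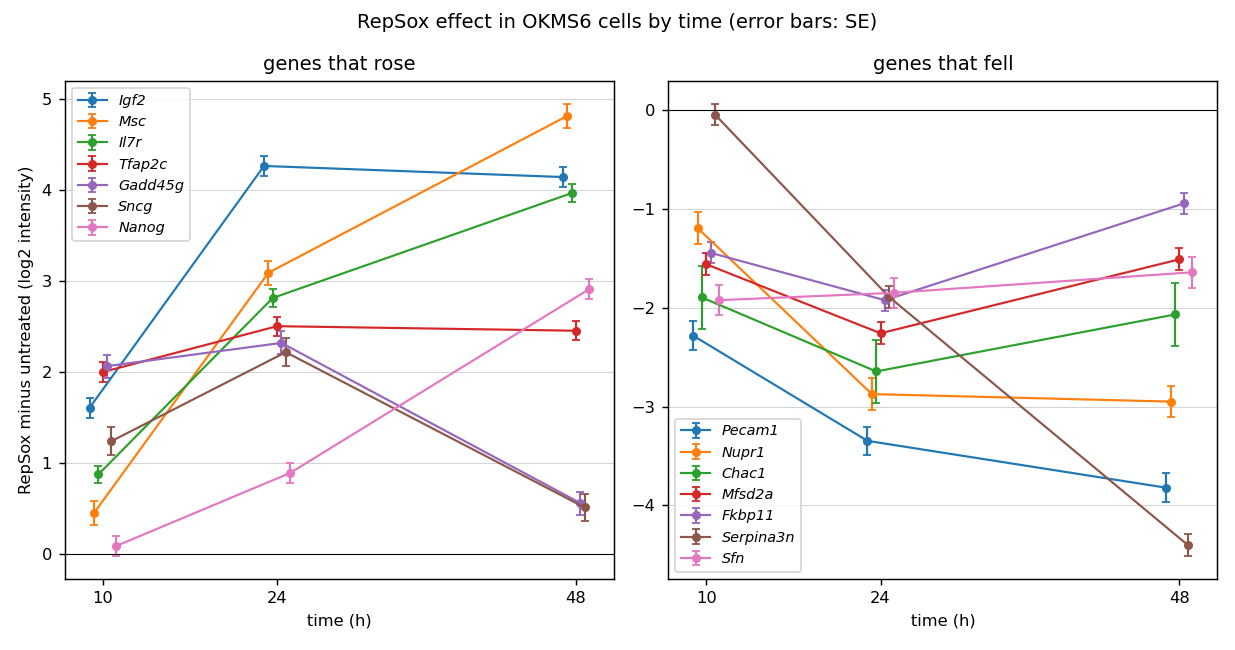
Change with RepSox (log2, treated minus untreated, with SE) at 10, 24 and 48 h for 7 genes that rose (left) and 7 that fell (right) at 24 h, points shifted slightly sideways for clarity. The changes of Msc, Il7r, Nanog and Serpina3n were larger at 48 h than at 24 h, and those of Gadd45g and Sncg were smaller.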

How the data were processed

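Biotin-labelled RNA was hybridised to Illumina BeadChips. The scanner table, deposited by the authors, holds an intensity and a detection p-value per probe and array, not normalised, and the submitters' processing notes name BeadStudio. The deposited series matrix holds processed intensities, not on a log2 scale, with a median of 10.7 in every column. No source used here gives its method. When it was fitted, values under 16 were raised to 16, which is above that median, and log2 was taken. Titles set the groups. Normexp background correction (neqc, offset 16) and quantile normalisation were run over 27 arrays of 9 groups, leaving out the V6.5 line. Group means were fitted with limma 3.58.1 in R 4.3.3 with 18 residual degrees of freedom, p-values were adjusted by Benjamini-Hochberg over 9267 genes, and the call threshold was 0.05. Of 25697 probes, 13591 passed a filter of detection p below 0.05 in 3 or more of the 18 OKMS6 arrays, and the brightest named probe stood for a gene. The fit was tested on simulated data. The number of arrays limits the precision. The 33 gene lists (696 genes, 472 list entries measured) and the comparison itself were chosen with earlier results of these data known. Named genes are the 15 largest rises and falls whose arrays do not overlap, without provisional names, up to 5 called members of each list by smallest adjusted p, members of counts of 5 or fewer, and reprogramming and pathway genes. Probe names come from GEO's platform annotation, with 23978 probes given 1 gene and 1719 unlisted. In 22 alternatives, 2 of them added after seeing the data, 1 choice was changed at a time. Correlations of same-numbered arrays' deviations at 24 h were -0.215, 0.17 and -0.321. They gave no sign that the numbers pair the 24 h samples, though 3 arrays per group cannot exclude it. At 48 h the same correlations were 0.23, 0.107 and 0.344. Differently numbered arrays reached 0.125 (treated 1 with untreated 2) and 0.115 (treated 2 with untreated 1). The count of differences between 48 and 24 h with the replicate block was 2304 against 2271 without it.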

Additional observations from a re-analysis of the deposited data

Results flagged for a closer look

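The change with RepSox was compared between times for 41 genes, the 30 with the largest rises and falls and the reprogramming and pathway genes, and the test of the difference itself (limma, adjusted over all genes) called 24 differences between 24 and 10 h. Above 0, as the change at 24 h minus that at 10 h (log2), were Igf2 (2.66), Kng1 (1.75), Msc (2.64), Il7r (1.94), Cdh13 (2.68), Wnt5a (2.11), Insm1 (1.08), Cpsf4l (1.38), Rnase1 (1.86), Gng13 (1.66), Aoc1 (1.35), Lypd1 (0.88), Sncg (0.98) and Nanog (0.81). Below 0 were Pecam1 (-1.06), Nupr1 (-1.68), Itpr2 (-1.57), Ccdc68 (-1.12), Mfsd2a (-0.70), Mfng (-1.34), Slc6a12 (-1.06), Plac8 (-1.21), Serpina3n (-1.85) and Mylk (-1.37). Most of these genes had been chosen for a large change at 24 h.

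Between 48 and 24 h the test called 21 differences. Above 0, as the change at 48 h minus that at 24 h (log2), were Kng1 (1.38), Msc (1.73), Il7r (1.15), Cdh13 (0.90), Insm1 (0.72), Rnase1 (0.43), Aoc1 (0.39), Lypd1 (1.41), Mfsd2a (0.75), Fkbp11 (0.98), Nanog (2.02) and Id2 (1.16). Below 0 were Gadd45g (-1.76), Sncg (-1.71), Ccdc68 (-0.66), Mfng (-0.62), Plac8 (-1.30), Serpina3n (-2.51), Neu1 (-0.55), Mylk (-0.92) and Klf4 (-0.69). Without both replicate 3 arrays of 48 h, 17 of the 21 were still called, and Rnase1 (0.46), Aoc1 (0.37), Mfng (-0.62) and Neu1 (-0.48) were not. The 24 h arrays enter both sets of differences.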

How the results depend on the processing

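The number of genes called at 24 h was 2572 and moved most with all 30 arrays, the series matrix and array weights. It was 997 with all 30 arrays, 1569 with the series matrix and 5025 with array weights, and the same counts were 72, 50 and 2168 for differences between 24 and 10 h (309 as reported) and 716, 336 and 4275 for those between 48 and 24 h (2271 as reported). Using all 30 arrays changed the normalisation as well as the spread. The series matrix changed the source values and exchanged the 48 h replicate 3 arrays. Leaving out 1 array at a time gave 1813 to 2892, 197 to 651 and 1890 to 2702. The low and high counts for 24 against 10 h came without treated replicate 2 (197) and without treated replicate 3 (651). With the replicate block the counts were 2631, 320 and 2304. Scaling to a common median gave 527 higher and 3099 lower at 24 h, 66 and 246 between 24 and 10 h, and 1402 and 603 between 48 and 24 h. Over probes detected on all arrays the splits were 2269 and 860, 268 and 81, and 803 and 1598. The fit on the 6 arrays alone called 1730. In all alternatives that allow the comparison, 0 genes were called in the opposite direction. For 160 named genes, 3169 values kept direction and call, 222 lost the call, 4 gained it and 5 reversed, namely Myocd (-0.204), Nes (0.034) and Tgfbr1 (-0.207) on other probes, and Plat (0.074) and Sox2 (0.31) with the median over detected probes. The cause of these changes was not tested. Dim probes limit what was measured, since 199 of the rises were detected on no untreated array and 116 of the falls on no treated array.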
